A study of Mus musculus with 8 samples.

Results

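The genes described here are 7 C-type lectins of myeloid cells and Langerhans cells: Cd207, Cd209a, Clec10a, Clec4d, Clec4e, Clec4n and Clec7a. They were taken by gene symbol from the platform annotation, every probe included, and they account for 12 of 25697 probes and 7 of 16593 named genes on the array. The members were chosen by their differences between SA and WT tumours at day 38, which were already known, so those differences are descriptions and carry no test. Among the members, Cd207 and Cd209a (dendritic) are set against Clec4d and Clec4e (inflammatory).

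RNA came from 8 whole melanomas of C57BL/6 mice, each hybridised to its own Illumina bead array. BrafCA and Tyr::CreER were present in every mouse, and newborns were painted with 4-hydroxytamoxifen on ear, flank and tail skin. Tumours called SA, from mice with Ifnar1SA, were taken at day 20, day 38 and day 60 after tamoxifen, and tumours called WT, from mice with Ifnar1+/+, at day 38, with 2 samples in each of the 4 groups. Ifnar1SA encodes a type I interferon receptor chain known to escape degradation, and the genotype labels name it where the treatment protocol writes Ifnar1-/-; the genotype labels were followed. The Tyr promoter drives Cre in the melanocyte lineage, so recombination is aimed at pigment cells and not at the immune cells that use these lectins. Ifnar1SA is given as the genotype of the whole mouse, with no cell type named. The labels leave unsaid if a group's 2 tumours are from different mice, so a p-value here reflects sample-to-sample spread that may be technical. In RNA from whole tumours, fewer cells of a type and less RNA per cell cannot be told apart.

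C-type lectins share a fold that in many of them, though not in all, binds sugars or lipids with the help of calcium. Cd207 encodes langerin, which builds the Birbeck granules of Langerhans cells, the dendritic cells of the epidermis, and Cd209a encodes a mouse relative of human DC-SIGN found on dendritic cells. Clec4e (Mincle) and Clec4d (MCL) bind mycobacterial glycolipid, Clec4n (Dectin-2) binds mannans and Clec7a (Dectin-1) binds beta-glucan. The first 3 of these signal through the partner chain Fcer1g, whereas Clec7a carries its own signalling motif, and all of them reach the kinase Syk and the adaptor Card9. Clec10a (MGL1) binds galactose and N-acetylgalactosamine on macrophages and dendritic cells.

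The starts of the 4 genes that are set against each other are shown because the pairs differed in opposite directions at day 38. Each sequence runs from 250 bases before to 50 bases after the RefSeq start (GRCm38.p6), read along the gene's strand, with capitals marking matches to motifs on either strand. Cd207 lies at chr6:83677808-83678107 (minus strand), Cd209a at chr8:3748935-3749234 (minus), Clec4d at chr6:123261857-123262156 (plus) and Clec4e at chr6:123289822-123290121 (minus).
Cd207: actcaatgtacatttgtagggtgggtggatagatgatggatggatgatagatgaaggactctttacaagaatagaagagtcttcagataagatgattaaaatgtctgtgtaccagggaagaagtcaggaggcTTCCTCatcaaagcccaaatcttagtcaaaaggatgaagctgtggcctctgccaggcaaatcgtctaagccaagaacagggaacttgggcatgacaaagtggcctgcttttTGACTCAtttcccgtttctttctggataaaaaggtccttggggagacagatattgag
Cd209a: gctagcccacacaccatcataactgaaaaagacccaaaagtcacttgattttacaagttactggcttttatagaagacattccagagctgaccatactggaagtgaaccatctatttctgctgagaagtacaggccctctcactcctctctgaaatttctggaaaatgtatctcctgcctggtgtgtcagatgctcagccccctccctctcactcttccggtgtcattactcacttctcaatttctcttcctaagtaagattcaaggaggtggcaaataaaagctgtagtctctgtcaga
Clec4d: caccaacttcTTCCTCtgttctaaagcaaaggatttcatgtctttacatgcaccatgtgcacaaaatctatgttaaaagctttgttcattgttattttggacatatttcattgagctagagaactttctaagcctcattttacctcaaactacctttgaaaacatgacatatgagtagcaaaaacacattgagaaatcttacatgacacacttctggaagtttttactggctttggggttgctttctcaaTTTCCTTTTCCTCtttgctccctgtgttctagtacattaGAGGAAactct
Clec4e: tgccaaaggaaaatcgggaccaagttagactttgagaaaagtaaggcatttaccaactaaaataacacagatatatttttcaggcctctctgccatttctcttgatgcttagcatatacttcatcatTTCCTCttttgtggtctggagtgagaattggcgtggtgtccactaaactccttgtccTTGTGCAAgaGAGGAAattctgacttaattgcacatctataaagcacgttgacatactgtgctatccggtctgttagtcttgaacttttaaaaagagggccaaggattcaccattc

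The 5 motifs searched on both strands were AP-1 (TGANTCA), C/EBP (TTGCNNAA), the interferon-stimulated response element or ISRE (GAAA, then 2 bases of any kind, then GAAA), PU.1 (GAGGAA) and NF-kB (GGGA, then 4 bases of any kind, then CC). Cd207 held an AP-1 match at bases -7 to -1 before the start and a PU.1 match at -118 to -113. Cd209a held none of the 5. Clec4d held an ISRE match at bases 1 to 10, overlapping a PU.1 match at 8 to 13, and further PU.1 matches at -240 to -235 and 40 to 45. Clec4e held a C/EBP match at -66 to -59 and PU.1 matches at -123 to -118 and -56 to -51. Of 32851 promoters of the same length, 7.81% held the AP-1 letters, 10.8% C/EBP, 3.44% ISRE, 28.3% PU.1 and 20.7% NF-kB. A match is a run of letters and no evidence of binding. RefSeq promoters were at hand for 5 of the 7 members; Clec4n, Clec4d and Clec4e lie in that order on chromosome 6.

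The deposited values were linear intensities from 183.9 to 71767, with array medians from 409.3 to 410. Log2 values below are from background-corrected intensities. Each probe has its own response, so levels were compared between arrays and never between probes. Probes entered the tests if they averaged more than 7.24 on the log2 scale over the arrays, which is the 40th percentile, and 10 of the 12 member probes did. Each gene was represented by its brightest such probe, which kept 7 of 7 members among 11661 measurements. Replicates correlated across genes at 0.944 for SA at day 20, 0.971 at day 38, 0.970 at day 60 and 0.988 in WT. The arrays of SA at day 38 had log2 values of 9.20 and 9.69 for Xist, against 6.84 to 7.56 on the other 6 arrays, and of 6.11 and 6.20 for the Y-linked Eif2s3y, against 11.37 to 11.80. Sex and genotype therefore cannot be told apart at day 38, nor sex and time wherever SA day 38 enters; SA days 20 and 60 and WT shared the male pattern.

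Cd207 was higher in SA tumours at days 20 and 38 than in WT tumours. Its brighter probe read 1969.2 and 1718.7 in SA at day 20, 2568 and 1491.9 at day 38, 797.1 and 1457.7 at day 60, and 716.4 and 714.5 in WT at day 38. All 6 SA arrays lay above both WT arrays, and the 2 arrays of day 60 were the lowest of the SA arrays. The second Cd207 probe followed the first over the 8 arrays (Pearson r = 0.991), with 1263 and 838.5 in SA at day 38 against 515 and 550.2 in WT. At day 38 the log2 difference, SA minus WT, was 1.75 by the first probe, or 3.36-fold, and 1.29 by the second. On that scale the group means were 10.68 ± 0.16 at day 20, 10.78 ± 0.62 at day 38, 9.77 ± 0.75 at day 60 and 9.03 in WT (SD, n = 2 each), where the WT arrays differed by less than 0.01.

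Cd209a split the arrays into a higher and a lower set. Its 1 probe read 567.5 and 501.9 in SA at day 20, 530.6 and 490.6 at day 38, 297.1 and 296.9 at day 60, and 342.3 and 321.5 in WT. The 4 arrays of SA days 20 and 38 were high, the 4 others were low, and SA at day 60 lay below WT. The log2 means were 8.41 ± 0.20, 8.30 ± 0.13, 6.69 and 7.11 ± 0.15 in the same order (SD, n = 2 each). The day 60 and WT values were below 7.24, so Cd209a entered the tests through the groups in which it was high, and its low values are close to background. The difference at day 38, SA minus WT, was 1.20 on the log2 scale, and 0.62 without background correction.

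Clec10a was the most uneven member between replicates. Its deposited intensity was 5615 and 1362.4 in SA at day 20, 2639.4 and 3590.9 at day 38, 2514.5 and 1706.8 at day 60, and 1720 and 1439.6 in WT. The day 20 arrays were the highest and the lowest of all 8, a log2 SD of 1.57. At day 38 both SA arrays lay above both WT arrays, with a log2 difference of 1.06, or 2.09-fold.

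Clec4d ran the other way at day 38. It read 967.8 and 1004.8 in SA at day 20, 393 and 443.5 at day 38, 1682.2 and 1190.2 at day 60, and 948.1 and 897.8 in WT. The 2 SA arrays of day 38 were the lowest of the 8, those of day 60 were the highest, and day 20 lay just above WT. The difference at day 38 was -1.71 on the log2 scale, SA minus WT, or 0.306-fold. Log2 means were 9.63 ± 0.05, 7.80 ± 0.23 and 10.25 ± 0.41 in SA at days 20, 38 and 60 and 9.51 ± 0.07 in WT (SD, n = 2 each).

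Clec4e varied little by its brighter probe, and its probes did not follow each other. That probe read 437.8 and 440.2 in SA at day 20, 395 and 385.5 at day 38, 423.6 and 370.9 at day 60, and 404.4 and 547.1 in WT. The SA arrays of day 38 lay just below WT, where 1 array stood above all others. The dimmer probe, below the filter, read 270.7 and 325.3 in SA at day 20, 264.9 and 273.8 at day 38, 316.3 and 359.8 at day 60, and 290.1 and 329.8 in WT. Over the 8 arrays the probes correlated at r = 0.213. The log2 difference at day 38, SA minus WT, was -0.47 by the brighter probe and -0.60 by the dimmer one. Without WT replicate 2 the first value was -0.10.

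Clec4n was somewhat lower in SA than in WT, and Clec7a overlapped between them at day 38. Clec4n read 1547.5 and 1376.3 in SA at day 20, 1432.3 and 972.3 at day 38, 1442.7 and 1656.4 at day 60, and 1701.7 and 1816.3 in WT. Every SA array was below both WT arrays, and the difference at day 38, SA minus WT, was -0.67 on the log2 scale (-0.34 without SA replicate 2 of that day). Clec7a read 622.4 and 584.6 in SA at day 20, 669.4 and 482.5 at day 38, 481.1 and 636.8 at day 60, and 530.9 and 545.5 in WT, so that both WT arrays lay between the SA arrays of day 38. Of its other 3 probes, 2 passed the filter and stayed between 406.5 and 685.2, and the fourth read 262.5 to 335.1. The day 38 difference, SA minus WT, was 0.11 by the brightest probe (-0.26 without SA replicate 1 of that day), and the others gave 0.04, 0.18 and 0.32.

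**Figure D1:**
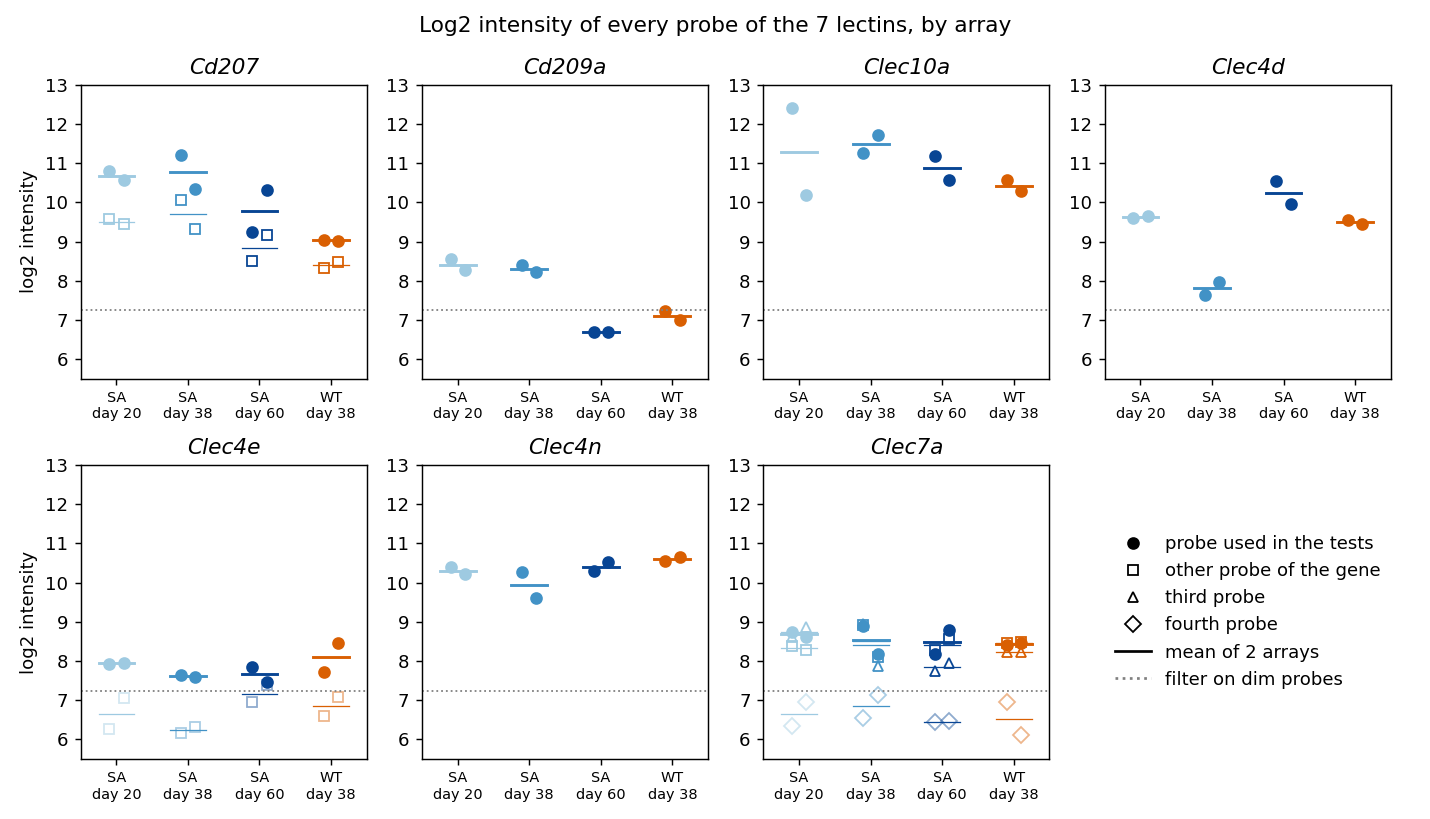
Log2 background-corrected intensity (y axis) of the 7 lectins in each group (x axis); filled circles are arrays on the probe used in the tests, open symbols are other probes of the same gene, faded points are probes below the filter, lines are means of 2 arrays, and the dotted line is the filter at 7.24. Cd207 and Cd209a are high in SA at days 20 and 38 and low in WT, whereas Clec4d is lowest in SA at day 38 and highest at day 60.

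At day 38, 3 members were higher in SA than in WT with no overlap between arrays (Cd207, Cd209a and Clec10a) and 3 were lower (Clec4d, Clec4e and Clec4n). Over all 11661 measurements, 24.1% were higher without overlap and 30.1% lower. The median difference was 0.11 over the members and -0.02 over all measurements. Adjusted p-values called 7 of the 11661 measurements (0.0600%), and 14.1% had an unadjusted p under 0.05. The members were chosen on these values, and nothing is read from their count.

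The question asked of arrays that did not enter that choice was how the lectins differed between SA tumours at day 60 and at day 20. The spread behind its SE and p-values was estimated from all 8 arrays, those of the choice included. None of the 7 members was called (limma, Benjamini-Hochberg adjusted p under 0.05), nor was any of the 11661 measurements (0%). At an unadjusted p under 0.05 there were 2 of 7 members and 2741 of 11661 measurements (23.5%). Cd209a was lower at day 60, with log2 means of 6.69 at day 60 and 8.41 at day 20. The difference was -1.72 (SE 0.17, fold 0.304, adjusted p = 0.0756, unadjusted 3.13e-05), and both day 60 arrays were lower than both day 20 arrays. Its day 60 values lay below the filter, which Cd209a passed through the groups in which it was high. The difference is thus taken against values close to background, and its SE and p-values are given as description only. Without replicate 2 of day 20 the difference was -1.86 and the adjusted p was 0.0134, in a fit that called 915 genes in place of 0. Clec4d differed by 0.62 (SE 0.23, adjusted p = 0.174, unadjusted 0.0312), with both day 60 arrays above both day 20 arrays. Cd207 differed by -0.91 (SE 0.41, adjusted p = 0.237), with no overlap either.

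The other 4 members differed less in size. Clec10a differed by -0.43 (adjusted p = 0.733), and by 0.68 without replicate 1 of day 20. Clec4e differed by -0.28 by its brighter probe (adjusted p = 0.552) and by 0.50 by its dimmer one. Clec4n differed by 0.10 (adjusted p = 0.838) and Clec7a by -0.20 (adjusted p = 0.718), while the other Clec7a probes gave 0.08, -0.89 and -0.19. Without overlap between arrays, 1 member was higher at day 60 (Clec4d) and 3 were lower (Cd207, Cd209a and Clec4e), against 30.0% and 22.7% of all measurements. The median over the members was -0.28, and 0.03 over all measurements.

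The steps on either side of day 38 share the SA arrays of day 38 with the comparison above and are given as values only. Between SA day 38 and SA day 20, Clec4d differed by -1.83 on the log2 scale, whereas Cd207 and Cd209a differed by 0.09 and -0.10. Clec4d and Clec4e were lower at day 38 without overlap and no member was higher, against 19.4% lower and 18.7% higher over all measurements. Between day 60 and day 38 the differences were 2.45 for Clec4d, -1.61 for Cd209a and -1.01 for Cd207. In that step Clec4d and Clec4n were higher at day 60 without overlap and Cd207, Cd209a and Clec10a were lower, against 32.9% and 25.0% of all measurements.

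The mean of SA days 20 and 60 was also set against WT, a comparison without the female-pattern arrays, although its WT arrays are shared with the day 38 comparison. Its WT arrays are of day 38 and its SA arrays are not, so genotype and time cannot be told apart in it. Cd207 differed by 1.20, Cd209a by 0.44 and Clec4d by 0.43 on the log2 scale, so that Clec4d lay on the other side of WT than it did at day 38. All 4 SA arrays were above both WT arrays for Cd207 and Clec4d and below them for Clec4n. These are 3 of 7 members without overlap, against 34.0% of all measurements without overlap in either direction.

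**Figure D2:**
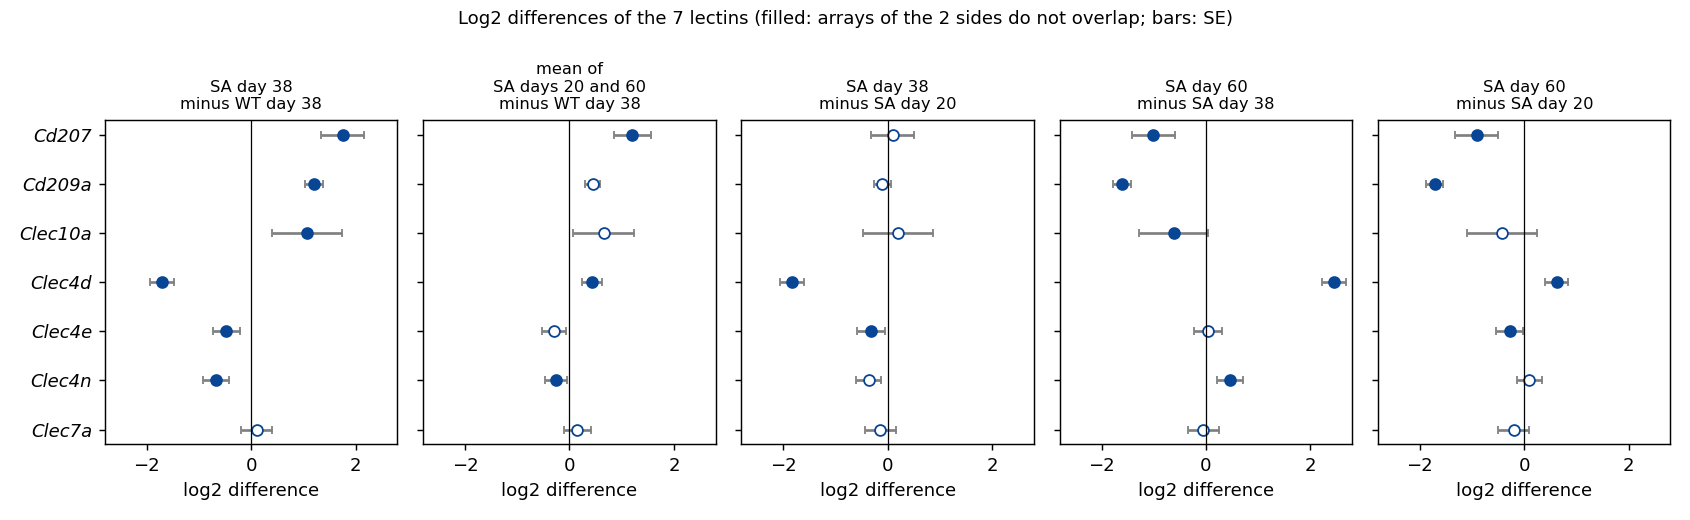
Log2 difference (x axis) of each lectin (rows) in 5 comparisons (panels), with bars for the SE from the fit across all genes and filled points where the arrays of both sides do not overlap. Clec4d lies at -1.71 for SA minus WT at day 38 and at 2.45 for SA day 60 minus SA day 38, and Cd207 and Cd209a take the opposite sign in both.

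The contrast between dendritic and inflammatory lectins was measured as the mean log2 difference of Cd207 and Cd209a minus that of Clec4d and Clec4e. It was 2.57 for SA minus WT at day 38, made of 1.47 for the dendritic pair and -1.09 for the inflammatory pair. For SA day 60 minus SA day 20 it was -1.48, of which -1.32 came from the dendritic pair and 0.17 from the inflammatory pair. In the dendritic pair Cd209a differed by -1.72 and Cd207 by -0.91. Cd209a passed the filter through the groups in which it was high. Its values in SA at day 60 and in WT were below 7.24 and close to background, and they also enter the gap given next. With each gene centred on its mean over the 8 arrays, the gap between the pairs was 0.62 and 0.33 in SA at day 20, 1.87 and 1.22 at day 38, -1.51 and -0.50 at day 60, and -0.80 and -1.24 in WT. Every array of SA days 20 and 38 was above 0 and every array of SA day 60 and WT below it, and SA at day 60 overlapped WT. The pooled SD between arrays was 0.46. The inflammatory side rested mainly on Clec4d, since Clec4e differed by at most 0.47 in size in any comparison by its tested probe.

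**Figure D3:**
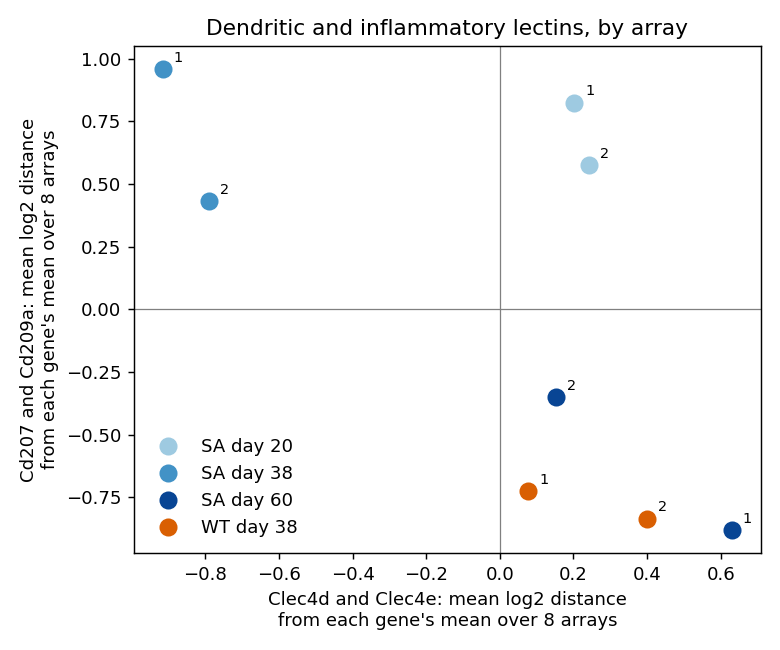
Mean log2 distance from each gene's own mean over the 8 arrays for Cd207 and Cd209a (y axis) and for Clec4d and Clec4e (x axis); each point is an array, numbered by replicate. SA at day 38 is high for the dendritic pair and low for the inflammatory pair, SA at day 20 is above 0 for both, and SA at day 60 lies near WT, low for the dendritic pair.

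The 8 arrays give only a description of which lectins ran together, since the arrays share 4 groups. Cd207 and Cd209a correlated at r = 0.77, Cd207 and Clec4d at -0.54, Cd209a and Clec4d at -0.64, and Clec4d and Clec4e at 0.26. Clec4d and Clec4n, which share the partner chain Fcer1g, correlated at 0.54. Among 10770 other named genes tested, those most like Cd207 over the 8 arrays were H2-Ob, Rbbp5, Septin3, Upb1 and Arhgap9 (r = 0.969 to 0.948). H2-Ob encodes a chain of the class II modulator H2-O. For Cd209a they were Prkcd, Myo1g, Prkab2, Dnase1l3 and Krt80 (0.968 to 0.951), and Prkcd is the kinase that links Syk to Card9. Clec4d was most like Nr1d1, a repressor of the circadian clock, and then Gabarapl2, Tmbim4, Pla2g7 and Samm50 (0.974 to 0.955). Clec4e was most like Ier3ip1, Lancl3, Pou3f2, B3gnt5 and Sdhaf4 (0.932 to 0.894). With 8 arrays many genes reach such values: 20 genes had r over 0.9 with Cd207, 48 with Cd209a, 36 with Clec4d and 3 with Clec4e.

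Other C-type lectins were followed as a list of 29 genes on the array, of which 19 passed the filter. Between SA day 60 and SA day 20, 6 were higher and 13 lower at day 60, with a median of -0.84 against 0.03 over all measurements. Of the 19, 0 were called (limma, adjusted p under 0.05) and 11 had an unadjusted p under 0.05, against 23.5% of all measurements. Clec4g, a lectin of liver sinusoidal endothelium in humans, differed by -1.61 (SE 0.18, adjusted p = 0.0756) and Cd209e by -1.06 (SE 0.22, adjusted p = 0.0980). The day 60 means of Clec4g, Cd209e and Cd209c, all among the 11, were 7.17, 6.95 and 7.04, below 7.24. These genes passed the filter through groups in which they were higher. Their differences are taken against values close to background, and their SE and p-values are description only. For SA minus WT at day 38, 11 were higher and 8 lower, with a median of 0.23 and 0 called. There 6 had an unadjusted p under 0.05, against 14.1% of all measurements. Cd209e differed by 1.50 (adjusted p = 0.148) and Cd209d by 1.22 (adjusted p = 0.205).

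The relatives of Cd209a lay on the same side as Cd209a between SA days 60 and 20 and between SA and WT at day 38. Cd209e read 420.2 and 486.7 in SA at day 20, 440.2 and 397.5 at day 38, 305.7 and 330.8 at day 60, and 263.6 and 284 in WT. Cd209d read 1340.3 and 909 in SA at day 20, 1309.5 and 1216.7 at day 38, 748.9 and 652.1 at day 60, and 639.5 and 663.7 in WT. In both genes the day 60 arrays lay below those of days 20 and 38. Cd209b, Cd209c, Cd209d and Cd209e were all lower at day 60 than at day 20 (-1.45 to -0.84, 0 of 4 called) and all higher in SA than in WT at day 38 (0.85 to 1.50, 0 of 4 called). How far the probes of these related genes tell them apart was not examined. In the mean of SA days 20 and 60 minus WT the relatives did not lie on 1 side: 3 were higher and 1 lower, with Cd209b at -0.58 (adjusted p = 0.457), Cd209c at 0.35 (adjusted p = 0.412), Cd209d at 0.56 (adjusted p = 0.148) and Cd209e at 1.17 (SE 0.19, adjusted p = 0.0304). Cd209e was the 1 of 19 other lectins called there, against 3.10% of all measurements called higher. Its log2 values were 6.13 and 6.50 in WT and 6.81 and 7.10 in SA at day 60, all below 7.24, so it entered the tests through SA days 20 and 38, and its difference is taken against values close to background. That call was lost without background correction (adjusted p = 0.0518), without the filter (adjusted p = 0.0531) and without either array of SA day 60 or of WT (adjusted p up to 0.231).

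**Figure D4:**
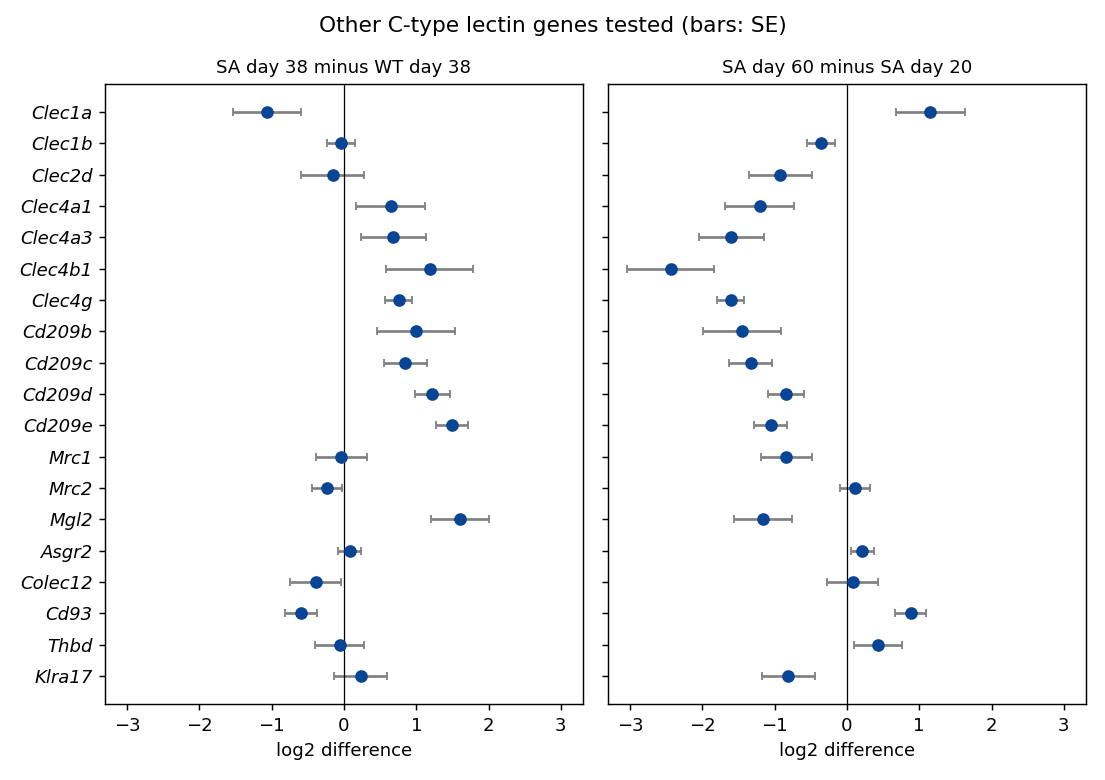
Log2 difference (x axis, bars are SE) of the 19 other C-type lectin genes tested (rows) for SA minus WT at day 38 and for SA day 60 minus SA day 20 (panels). The Cd209 genes lie at 0.85 to 1.50 in the first panel and at -1.45 to -0.84 in the second, and none was called in either.

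Neighbours of the members by family showed how uneven single arrays were. Mgl2, the close relative of Clec10a, read 3458 and 1654.2 in SA at day 20, 3007.7 and 4272.5 at day 38, 1341.6 and 1028.5 at day 60, and 1359.6 and 1257.2 in WT. It was high on all 4 arrays of SA days 20 and 38, unlike Clec10a. Clec4b1, a dendritic cell lectin of the Clec4 cluster, read 2355.2 and 886.5 in SA at day 20, 1225 and 1854.6 at day 38, 346.8 and 526.6 at day 60, and 757.9 and 782.6 in WT. It followed Cd209a in being lowest at day 60, and differed by -2.44 between SA day 60 and SA day 20 (SE 0.60, adjusted p = 0.108).

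The partner chain Fcer1g did not follow Clec4d. Its 1 probe read 23404.5 and 354.5 in SA at day 20, 7993.2 and 297.6 at day 38, 279.9 and 311.9 at day 60, and 15029.4 and 6280.9 in WT. It was below the array median on 4 arrays and far above it on the other 4, with replicates of the same group on both sides at days 20 and 38. Fcer1g was singled out after its values were seen, and its difference between SA day 60 and SA day 20 was -4.26 with an SE of 2.67 (adjusted p = 0.372). Tyrobp, another adaptor of myeloid receptors, varied far less, from 1802.5 to 3808.8 over the 8 arrays. The Syk probe lay below the filter.

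The wider signalling route from these lectins was followed in 18 of 19 listed genes. Between SA day 60 and SA day 20, 9 were higher and 9 lower, with a median of -0.04, and 0 were called. At an unadjusted p under 0.05 there were 4 of 18, near the 23.5% of all measurements. Prkcd differed by -0.64 (adjusted p = 0.113) and Hcst, an adaptor of activating receptors, by 0.55 (adjusted p = 0.138). For SA minus WT at day 38, 10 were higher and 8 lower, with a median of 0.02 and 0 called. There 3 had an unadjusted p under 0.05, against 14.1% of all measurements. Cebpb and Prkcd differed by 0.64 (adjusted p = 0.238) and 0.59 (adjusted p = 0.248). In the mean of SA days 20 and 60 minus WT, 2 of 18 rose and 0 fell, against 3.10% of all measurements called higher: the transcription factor gene Cebpb by 0.74 (SE 0.15, adjusted p = 0.0399) and the phospholipase gene Plcg2 by 0.62 (SE 0.12, adjusted p = 0.0401). Both calls were lost when any single array of SA day 38, SA day 60 or WT was left out, with adjusted p-values of up to 0.272 for Cebpb and 0.296 for Plcg2.

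Of the cytokines and other genes that these receptors are known to induce, 14 of 19 passed the filter. Between SA day 60 and SA day 20, 7 were higher and 7 lower, with a median of 0.01 and 0 called. At an unadjusted p under 0.05 there were 2, against 23.5% of all measurements. The cytokine gene Il1a differed by -1.41 (adjusted p = 0.0913) and Socs3, a feedback inhibitor of cytokine receptors, by 0.90 (adjusted p = 0.164). For SA minus WT at day 38, 5 were higher and 9 lower, with a median of -0.44 and 0 called. There 5 had an unadjusted p under 0.05, against 14.1% of all measurements. The neutrophil-attracting chemokine genes Cxcl2 and Cxcl1 differed by -2.25 (adjusted p = 0.218) and -1.45 (adjusted p = 0.277), the sign that Clec4d had there. Between SA days 60 and 20 they also had the sign of Clec4d (0.80 and 0.59, with Clec4d at 0.62). In the mean of SA days 20 and 60 minus WT, Cxcl1 had the opposite sign (-1.74, adjusted p = 0.0532, with Clec4d at 0.43).

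Dendritic and Langerhans cell markers, averaged as a list, were high on the same arrays as the dendritic members, but single markers differed in sign. Of 20 tested dendritic and Langerhans cell markers, 6 were higher and 14 lower at SA day 60 than at day 20 (median -0.66, 0 called). At an unadjusted p under 0.05 there were 6, against 23.5% of all measurements. In SA against WT at day 38, 17 markers were higher and 3 lower (median 0.79, 0 called, 5 at an unadjusted p under 0.05, against 14.1% of all measurements). Their mean log2 distance from each gene's own mean ran from 0.08 to 0.51 in SA at day 20, 0.43 to 0.44 at day 38, -0.87 to -0.18 at day 60 and -0.38 to -0.03 in WT. Summed intensities were 87014.4 to 126605 in SA at day 20, 104756 to 125722 at day 38, 36117.7 to 61127.3 at day 60 and 56577 to 57929 in WT. These sums rest mostly on bright class II genes. Cd74 and H2-Ab1 had log2 means of 15.11 and 15.27 in SA at day 38 and 14.01 and 14.12 in WT. The 2 markers with the smallest p between SA days 60 and 20, Cd74 and H2-DMa of the class II pathway, differed by -1.39 (adjusted p = 0.105) and -0.93 (adjusted p = 0.132). Between SA and WT at day 38 they were Cd74 and H2-Ab1, at 1.10 (adjusted p = 0.258) and 1.16 (adjusted p = 0.266). The 6 higher at SA day 60 were Zbtb46 (0.40), Batf3 (0.31), Irf8 (0.49), Id2 (0.55), Ccr6 (0.15) and Ccr7 (0.28). At day 38 the 3 lower in SA were Zbtb46 (-0.44), Irf8 (-0.08) and Cd80 (-0.13). Among the defining markers, the probes of Itgax, Flt3 and Xcr1 lay below the filter, and no marker read 0, since the deposited values keep their background. The part of these markers in the lectin differences was not tested.

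Monocyte and macrophage markers differed less at day 38. Of 17, 4 were higher and 13 lower at SA day 60 than at day 20 (median -0.49, 0 called), where 5 had an unadjusted p under 0.05. That share over all measurements was 23.5% there and 14.1% for SA against WT at day 38. Lyz2, which encodes lysozyme, differed by -0.93 (adjusted p = 0.0992) and Mertk, a receptor for the uptake of dying cells, by 1.20 (adjusted p = 0.144). In SA against WT at day 38, 11 were higher and 6 lower (median 0.06, 0 called, 4 at an unadjusted p under 0.05), where Vsig4, a complement receptor of resident macrophages, differed by -1.71 (adjusted p = 0.218), and Ly6c1 by 1.94 (adjusted p = 0.260). Summed intensities were 127245 to 181953, 151401 to 160534 and 112890 to 131740 in SA at days 20, 38 and 60, and 143481 to 150649 in WT. Of 16 neutrophil markers, 8 were higher and 8 lower at day 60 than at day 20 (median -0.13, 0 called, 3 at an unadjusted p under 0.05), with the protease gene Mmp9 at -1.12 (adjusted p = 0.105) and the decoy receptor gene Il1r2 at -1.66 (adjusted p = 0.155). In SA against WT at day 38, 2 were higher and 14 lower (median -0.38, 0 called, 5 at an unadjusted p under 0.05), with Stfa1 at -0.92 (adjusted p = 0.238) and Mmp9 at -0.94 (adjusted p = 0.248). Neutrophil sums were 56092.7 to 71274.5 in SA at day 20, 52044.9 to 82944 at day 38, 63362.2 to 84177.5 at day 60 and 130108 to 155551 in WT. Such sums follow the brightest probes, here S100a8, S100a9 and Stfa1, with WT log2 means of 15.75, 14.89 and 15.18. The receptor genes Csf3r and Cxcr2, at 8.57 and 8.24 in WT, differed by -0.27 and -0.40 between SA and WT at day 38. S100a8 and S100a9 differed by -1.48 and -1.37. In the mean of SA days 20 and 60 minus WT, 1 of 17 monocyte and macrophage markers fell, the chemokine receptor gene Cx3cr1, with a log2 difference of -1.81 (adjusted p = 0.0407). There 2 of 16 neutrophil markers fell, Stfa1 at -1.16 (adjusted p = 0.0354) and Retnlg at -4.47 (adjusted p = 0.0395), against 3.46% of all measurements called lower and 0 of either list called higher. All 3 calls were lost when either array of SA day 60 or of WT was left out, with adjusted p-values of up to 0.280 for Cx3cr1, 0.243 for Stfa1 and 0.283 for Retnlg. Clec4d did not follow the neutrophil list, being highest in SA at day 60 and not in WT.

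Markers of muscle, fat and pigment cells differed too. All 17 skeletal muscle markers and all 12 fat cell markers were higher in SA than in WT at day 38 (medians 2.88 and 2.78, with 0 and 1 called). They were all lower at SA day 60 than at day 20 (medians -2.42 and -0.59, 0 called, 8 and 2 at an unadjusted p under 0.05). Of all measurements, 0.0600% were called at day 38. An unadjusted p under 0.05 was held by 14.1% there and by 23.5% between days 60 and 20. The fat cell gene Adig rose in SA against WT at day 38 by 3.38 (SE 0.32, adjusted p = 0.0444), a call lost without any single array of SA day 38, SA day 60 or WT (adjusted p up to 0.587), and the muscle genes Ampd1 and Actn3 differed there by 3.85 (adjusted p = 0.218) and 4.76 (adjusted p = 0.252). Between SA days 60 and 20, the lipase gene Lpl differed by -1.65 (adjusted p = 0.0913), the leptin gene Lep by -1.73 (adjusted p = 0.144), Tnnt3 by -2.81 (adjusted p = 0.132) and Ampd1 by -2.96 (adjusted p = 0.143). Muscle sums were 266085 to 448204, 324865 to 542268 and 29529.1 to 194965 in SA at days 20, 38 and 60, and 78020.9 to 89060.1 in WT. Fat cell sums were 61131.8 to 123329, 149864 to 168781 and 44296.6 to 44382.9 in SA at the same days, and 35657.8 to 38747.2 in WT. All 9 melanocyte markers were higher in SA than in WT at day 38 (median 1.53) and higher at day 60 than at day 20 (median 2.38, 0 called in either, 1 and 5 at an unadjusted p under 0.05). Pmel and Mlana, of the pigment granule, differed by 2.11 (adjusted p = 0.341) and 1.84 (adjusted p = 0.408) at day 38, and Mitf, the regulator of the lineage, and Gpr143 by 1.62 (adjusted p = 0.0962) and 1.96 (adjusted p = 0.166) between days 60 and 20. Their summed intensity was 7387.7 and 109027 on the day 20 arrays, 39826.6 to 53889 at day 38, 111685 to 156577 at day 60 and 12258.6 to 13427 in WT. Melanocyte markers were thus lowest on 1 SA array of day 20 and on both WT arrays, and Tyr read 312.1 on that day 20 array and 347.7 and 341.9 in WT, below the array medians. Keratinocyte markers, of the layer in which Langerhans cells live, were summed at 414006 to 443123 in SA at day 20, 325333 to 342172 at day 38, 354131 to 385203 at day 60 and 309371 to 311118 in WT. In the mean of SA days 20 and 60 minus WT, 4 of 14 keratinocyte markers were called higher, against 3.10% of all measurements. The counts were 3 of 12 for fat cells, 1 of 9 for melanocytes and 0 of 17 for muscle. The fat cell genes were Adig (2.55, adjusted p = 0.0236), Plin4 (2.25, adjusted p = 0.0309) and Pparg (2.24, adjusted p = 0.0236). The melanocyte gene was Mitf (2.01, adjusted p = 0.0259). These fat and melanocyte calls were lost when either array of SA day 60 or of WT was left out. Fat and muscle markers share with Cd207 and Cd209a their high values at SA days 20 and 38, and their part in the lectin differences was not tested.

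**Figure D5:**
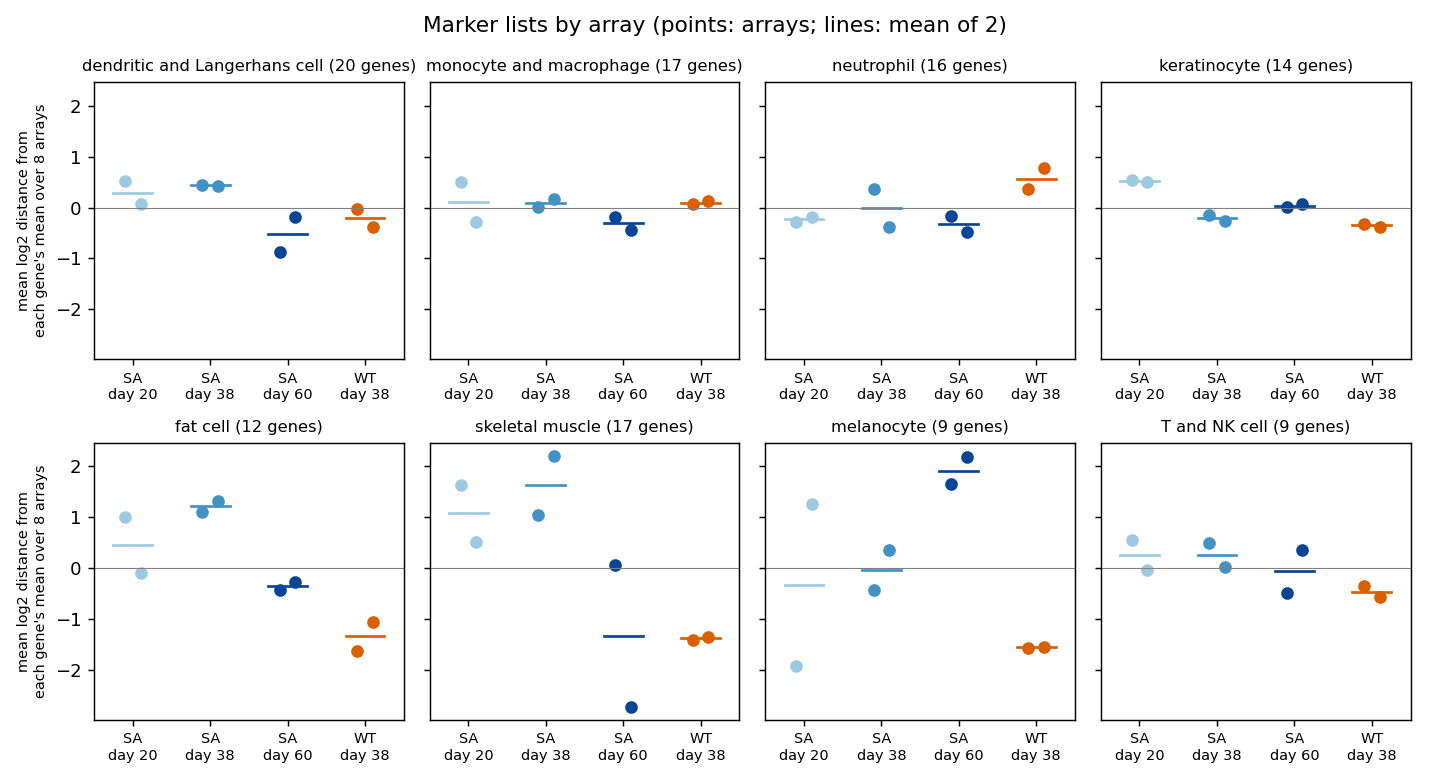
Mean log2 distance from each gene's own mean over the 8 arrays (y axis) for 8 lists of cell type markers (panels) in each group (x axis); points are arrays and lines are means of 2. The dendritic and Langerhans cell list lies at 0.08 to 0.51 in SA at days 20 and 38 and at -0.87 to -0.03 in SA at day 60 and WT, and the muscle and fat lists span a wider range.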

How the data were processed

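RNA of 8 melanomas, 2 per group, was measured on Illumina bead arrays. The deposited values were intensities on a linear scale, made with GenomeStudio 1.8, per the submitters' processing notes; the normalization is not given in the sources used here. A second table, whose 16 value columns name no sample, was not used, so detection p-values were not used either. Intensities were background-corrected by normexp with the saddle method and an offset of 16 (limma 3.58.1, R 4.3.3), then log2-transformed without normalizing again. Probes with a mean above the 40th percentile were kept, the brightest per gene. Named genes were 10771 of the 11661 measurements. A mean for each group was fitted to all 8 arrays (lmFit, eBayes, 4 residual and 2.49 prior degrees of freedom), with Benjamini-Hochberg adjustment over all measurements and a threshold of 0.05. The number of arrays limits the precision. Differences at low intensities depend on these settings. Background left in the values and the offset shrink them, and the background correction widens them. For SA minus WT at day 38, Cd209a differed by 1.20 with the correction and by 0.62 without it.

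The members and gene lists were chosen with earlier results of these data known. The text names all member probes, sex markers, the 5 genes most like 4 members and, per list and comparison described, the called genes with the largest change (at most 4) or else the 2 lowest p-values; other genes named (Clec4b1, Mgl2, Tyrobp, Fcer1g, Cd209 relatives, Tyr) were picked later. Members were tested between SA days 60 and 20, which share no array with the comparison that chose them. Alternatives were other background settings, filters, probe rules, normalization, a variance trend, the compared arrays alone, a replicate block and each array left out. The fit was checked on simulated data. Gene symbols came from the platform annotation (23978 of 25697 probes had 1 and 1719 had none). 1 item of the mouse model is not reported here.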

Additional observations from a re-analysis of the deposited data

How the results depend on the processing

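Of 35 member differences (7 members in 5 comparisons), 22 kept their direction under every alternative run, 20 in all. The fit without the SA day 38 arrays and the use of the dimmer Clec4e probe were chosen after seeing the data. The dendritic minus inflammatory contrast kept its sign in all 5 comparisons under each alternative that gave a value. Only SA day 60 minus SA day 20 shares no array with the comparison by which the members were chosen. In the others the kept sign is a description and no support. Without background correction it was -0.995 for SA day 60 minus SA day 20, 1.74 for SA minus WT at day 38 and -1.71 for SA day 60 minus SA day 38. With each array left out it ran from -1.99 to -0.98 in the first of these and from -3.06 to -2.05 in the last. Members called between SA days 60 and 20 ran from 0 to 1 with each array left out, the 1 being Cd209a without replicate 2 of day 20. The direction between SA days 60 and 20 turned with an array left out for Clec10a (-1.53 to 0.68), Clec4n (-0.0188 to 0.21) and Clec7a (-0.51 to 0.11), and for Clec4e by its dimmer probe (0.50). Between SA days 38 and 20 it turned for Cd207 (-0.34 to 0.53), Cd209a (-0.24 to 0.04), Clec10a (-0.91 to 1.30) and Clec7a (-0.51 to 0.22). The melanocyte gene Pmel turned there too (-0.31 to 2.51). Clec7a also turned in the remaining comparisons. Clec4e turned in SA day 60 minus SA day 38 and in the mean of SA days 20 and 60 minus WT. The cause was not tested. Counts of genes called over all alternatives ran from 0 to 915 for SA day 60 minus SA day 20 (0 as reported), 1 to 42 for SA minus WT at day 38 (7), 1 to 46 for SA day 38 minus SA day 20 (2), 1 to 930 for SA day 60 minus SA day 38 (127) and 0 to 1248 for the mean of SA days 20 and 60 minus WT (764). Same-numbered samples did not deviate together (correlations from -0.196 to 0.107). With the replicate number as a block, 0 members and 0 genes were called between SA days 60 and 20, where Cd209a had an adjusted p of 0.116. In the other comparisons 1, 1, 1 and 200 genes were called. The Cd209e, Cebpb, Plcg2, Cx3cr1, Retnlg and Plin4 calls were lost at adjusted p = 0.0511, 0.0551, 0.0718, 0.0714, 0.0691 and 0.0597. The Adig call for SA minus WT at day 38 was lost at adjusted p = 0.135. A filter at the 60th percentile left out Cd209a, Clec4e and Clec7a and gave no contrast, and the slide as a block was not run, since nothing ties arrays to slides. Cd209a, Clec4e and the dimmer probes lie close to background, which limits what their values can show.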

Other observations

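Of the C-type lectins known from endothelial cells, Cd93, Clec1a and Thbd were singled out after their values were seen. Between SA days 60 and 20, and between SA and WT at day 38, they had the opposite sign to the dendritic lectins. Clec4g had the same sign in both (-1.61 and 0.75, limma, adjusted p = 0.221 for the second). Its day 60 mean of 7.17 lay below the filter, close to background. Cd93 differed by 0.88 between SA day 60 and SA day 20 (limma, adjusted p = 0.108) and by -0.60 between SA and WT at day 38 (adjusted p = 0.313). Clec1a differed by 1.16 (adjusted p = 0.208) and -1.07 (adjusted p = 0.373) in the same comparisons. Thbd differed by 0.43 (adjusted p = 0.471) and -0.06 (SE 0.33, adjusted p = 0.953), so its sign at day 38 is not resolved.

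The class II genes H2-Aa and H2-Eb1, markers of antigen-presenting cells, split between replicates of the same group. H2-Eb1 read 18391.7 and 876.1 in SA at day 20, 859.8 and 9757.4 at day 38, 492.6 and 611.7 at day 60, and 4843.2 and 495.9 in WT. H2-Aa read 9826 and 724.5 in SA at day 20, 656.4 and 5447.7 at day 38, 379.3 and 463.4 at day 60, and 3013.6 and 486.2 in WT. Both were high on the same 3 arrays, 1 each of SA day 20, SA day 38 and WT.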
